A study of Mus musculus with 7 samples.

Results

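The A-type potassium channels of the Kv4 family and their auxiliary subunits were followed in ribosome-bound RNA of cholinergic cells from mouse ventral striatum. The family was taken by gene symbol as the pore subunit genes Kcnd1, Kcnd2 and Kcnd3, the KChIP genes Kcnip1, Kcnip2, Kcnip3 and Kcnip4, and the dipeptidyl peptidase-like genes Dpp6 and Dpp10. Of these 9 genes 8 were measured, each in 1 of the 22016 rows of the expression table, and Kcnip3 was not analysed here. The 8 genes also passed the filter on low values, a mean of at least 1 FPKM over all libraries, which 10089 rows passed. FPKM counts fragments per length of the gene and per size of the library, so levels of different genes can be set side by side.

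The KO group held 4 libraries from mice that carried ChAT Cre, the ChAT bacTRAP transgene and p11 fl/fl. The WT group held 3 libraries from littermates with the ChAT bacTRAP transgene and p11 fl/fl but without Cre. The WT mice were thus floxed for p11, the protein made from S100a10, and not free of engineered alleles. Translating ribosome affinity purification (TRAP) pulls down tagged ribosomes with their RNA from cells in which the Chat promoter drives the tag. Each library pooled 6 ventral striata from 3 mice of 8 to 12 weeks on the C57/Bl6N strain, so a replicate was a pool. The comparison asked which ribosome-bound RNAs differ when p11 is deleted from cholinergic cells. Cre was present in KO mice alone, so an effect of Cre and one of the deletion cannot be told apart.

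Kv4 channels open below the spike threshold and inactivate quickly, and the A-type current they carry delays firing and limits how far dendritic depolarization spreads. KChIPs are calcium-binding EF-hand proteins of the neuronal calcium sensor family that bind the channel's N terminus, bring more channels to the surface and slow their inactivation. DPP6 and DPP10 are single-pass membrane proteins related to dipeptidyl peptidases but without enzyme activity, and they speed the gating of the channel. In rat striatal cholinergic interneurons the A-type current has been attributed to pore subunits of this family, those made by Kcnd2 and Kcnd1.

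S100a10 fell in the KO libraries, with 127.1, 138.8, 189.8 and 89.2 FPKM in KO1 to KO4, against 329.5, 332.7 and 387.5 FPKM in WT1 to WT3 (log2 fold change -1.40, limma adjusted p = 0.0098). Summed FPKM ran from 379417 to 511328 in KO and from 418931 to 440720 in WT. The 8 measured cholinergic markers, among them Chat and Slc18a3, summed to 924 to 1123 FPKM in KO and 1194 to 1340 FPKM in WT, and none of them was at 0. The KO sums lay below the WT sums, largely through Slc18a3 (265.4 to 361.4 FPKM in KO, 412.1 to 675.6 FPKM in WT); without it the sums were 659 to 766 FPKM in KO and 660 to 798 FPKM in WT, which overlap. Of the 8 markers 3 had a positive fold change, Lhx8 with every KO value above every WT value, and none passed the limma threshold. The part of these markers in the differences below was not tested. A pair of libraries stood apart. WT1 held the single lowest value in 31% of tested rows, and KO1 held the single highest in 21.3% and the single lowest in 23.9%. Within the channel family KO1 had the highest value in 7 of 8 genes and WT1 the lowest in 5 of 8. The fold changes of the family genes are given with and without each of these libraries. In such pooled tissue, fewer cells of a type and less RNA per cell cannot be told apart.

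None of the 8 family genes passed the limma threshold of an adjusted p of 0.05, against 1.74% of all tested rows. At an unadjusted p under 0.05 limma found 2, Kcnip1 and Kcnip4, both higher in KO, as were 10.1% of all tested rows at that level. In the same 2 genes every KO value lay above every WT value, as in 9.11% of all tested rows. Log2 fold changes were positive in 7 of the 8 genes, against 53.4% of all tested rows, and their median was 0.17, against 0.03 over all tested rows. Without KO1 they were positive in 6 of 8, with a median of 0.08, and without WT1 the median was 0.09. The KChIP genes had the largest values, with a median of 0.79, which was 0.50 without KO1 and 0.51 without WT1. The pore subunit genes had a median of 0.13, which was -0.06 without KO1 and 0.05 without WT1. With 4 KO and 3 WT libraries, an exact two-sided permutation test of a single gene has 35 splits and cannot give a p below 0.057. None of the 8 genes was in the authors' deposited table of 113 genes, in which the largest adjusted p was 0.0499. Nor were the companion genes named further on.

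**Figure D1:**
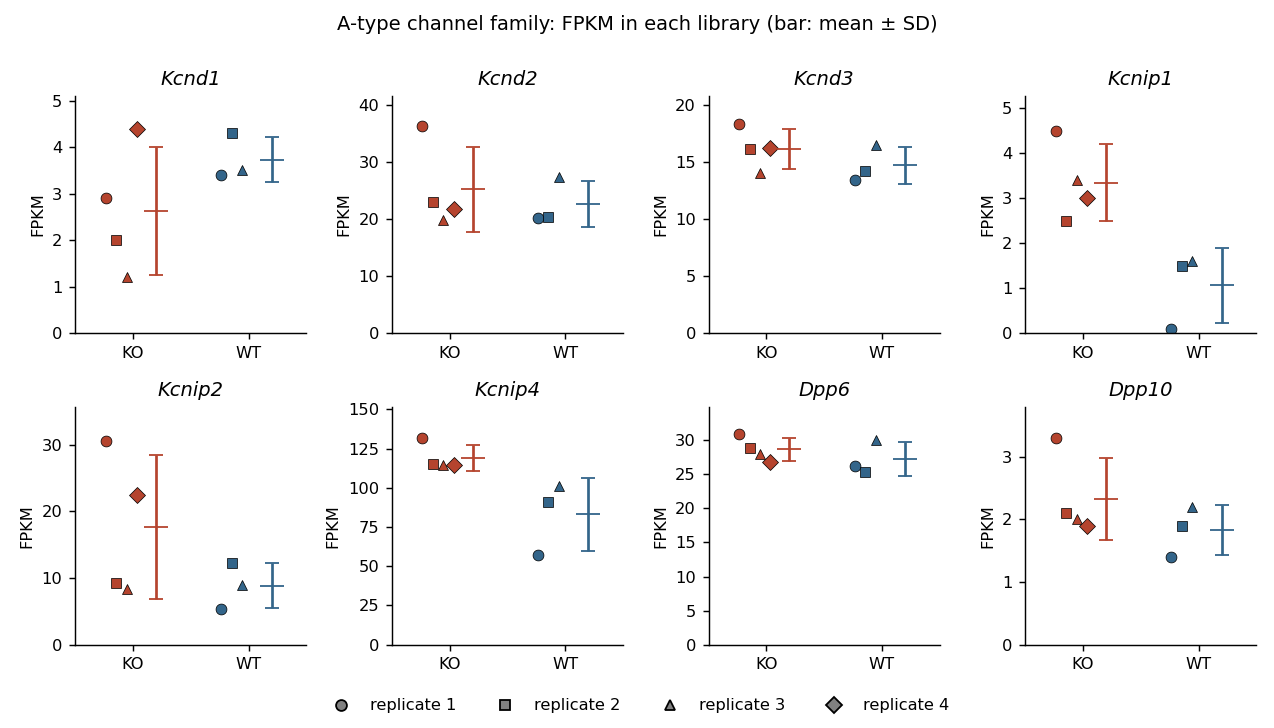
FPKM of the 8 measured genes in each KO library (left of each panel) and each WT library (right); marker shapes give the replicate number, and the bar beside each group is its mean with the SD (n = 4 KO, n = 3 WT). KO and WT points are apart in Kcnip1 and Kcnip4 and overlap in the other genes, and KO1 is the highest point in 7 of the 8 panels.

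By level, Kcnip4 stood first in all 7 libraries, with 114.5 to 131.7 FPKM in KO and 57.1 to 101.3 FPKM in WT. In WT it was followed by Dpp6, Kcnd2, Kcnd3, Kcnip2, Kcnd1, Dpp10 and Kcnip1. Dpp6 and Kcnd2 were neighbours whose WT ranges overlapped, and so were Dpp10 and Kcnip1, while the other neighbours in the WT order did not overlap. In KO the order was Kcnip4, Dpp6, Kcnd2, Kcnip2, Kcnd3, Kcnip1, Kcnd1 and Dpp10. There, the gaps below Kcnip4 and below Kcnd3 were the 2 at which the ranges of neighbours did not overlap. Of all tested rows, 8.88% had a WT mean above that of Kcnip4, 23.7% above Dpp6, 27.5% above Kcnd2 and 96.6% above Kcnip1.

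Members of a role are similar in sequence, and their levels can be compared as far as reads of one can be told from reads of another. In the coding sequences annotated by GENCODE M21 for mm10, Kcnip1 and Kcnip2 were identical at 72.1% of aligned bases, Kcnip1 and Kcnip4 at 74.3%, and Kcnip2 and Kcnip4 at 73.6%. The pore subunit genes were identical at 68.9% to 70.3% of aligned bases, and Dpp6 and Dpp10 at 60.6%. The longest run shared without a mismatch was 19 bases among the KChIPs, 29 bases among the pore subunits, and 20 bases between Dpp6 and Dpp10. The stretch of 90 coding bases in which the 3 KChIPs are most alike is shown because it is where reads would be hardest to assign. Capitals mark the 27 positions at which the 3 sequences are not all the same.
Kcnip1: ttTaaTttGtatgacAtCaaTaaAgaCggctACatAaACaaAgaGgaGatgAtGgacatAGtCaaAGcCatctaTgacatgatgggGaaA
Kcnip2: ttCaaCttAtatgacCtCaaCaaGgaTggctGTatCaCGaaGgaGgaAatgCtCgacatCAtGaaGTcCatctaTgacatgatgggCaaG
Kcnip4: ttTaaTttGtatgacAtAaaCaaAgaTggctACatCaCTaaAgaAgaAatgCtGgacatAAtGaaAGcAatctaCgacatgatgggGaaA
The stretch of Kcnd3 chosen in the same way against Kcnd1 and Kcnd2 differs at 19 of 90 positions, again in capitals.
Kcnd1: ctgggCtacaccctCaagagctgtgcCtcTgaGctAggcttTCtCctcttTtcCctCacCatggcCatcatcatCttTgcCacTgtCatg
Kcnd2: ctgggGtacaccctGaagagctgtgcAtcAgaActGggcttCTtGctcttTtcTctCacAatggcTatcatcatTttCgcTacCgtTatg
Kcnd3: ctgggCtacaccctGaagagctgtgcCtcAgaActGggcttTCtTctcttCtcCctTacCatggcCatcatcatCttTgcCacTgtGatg
Both sets are in the direction of transcription, from the longest complete coding transcript of each gene. Of the 31-base words in each gene's transcripts, 4.98% for Dpp10 and at most 0.768% for the other 7 genes also occur in other genes, and no such word is shared between members of one role.

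Among the pore subunits, Kcnd2 was the most abundant. Kcnd2 (chromosome 6, 21215503 to 21729805, plus strand), the gene of Kv4.2, the main dendritic A-type subunit of many forebrain neurons, had 36.3, 23.1, 19.9 and 21.8 FPKM in KO1 to KO4, against 20.2, 20.4 and 27.4 FPKM in WT1 to WT3. KO1 was the highest library, and the other 3 KO values lay within or just under the WT range. The means were 25.3 ± 7.47 FPKM in KO (SD, n = 4) and 22.7 ± 4.1 FPKM in WT (SD, n = 3). The log2 fold change was 0.13 (SE 0.21, 95% interval -0.33 to 0.58, limma adjusted p = 0.78). Without KO1 the fold change was -0.06 (limma adjusted p = 0.87), and without WT1 it was 0.05 (adjusted p = 0.95).

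Kcnd3 (chromosome 3, 105452330 to 105674002, plus strand), the gene of Kv4.3, had 18.3, 16.1, 14.0 and 16.2 FPKM in KO1 to KO4, against 13.4, 14.2 and 16.5 FPKM in WT1 to WT3. The groups overlapped over most of their range. Kcnd3 had a log2 fold change of 0.13 (SE 0.15, 95% interval -0.21 to 0.46, limma adjusted p = 0.70), which was 0.07 without KO1 and also 0.07 without WT1. The antisense gene Kcnd3os shares 1.72% of the exonic bases of Kcnd3, and reads of the 2 strands cannot be told apart where counting by strand is not stated.

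Kcnd1 (chromosome X, 7822289 to 7838280, plus strand), the gene of Kv4.1, was the scarcest pore subunit and the 1 family gene with a negative fold change. Its level was 2.9, 2.0, 1.2 and 4.4 FPKM in KO1 to KO4, against 3.4, 4.3 and 3.5 FPKM in WT1 to WT3. KO1, KO2 and KO3 lay below the 3 WT values and KO4 above them. The means were 2.62 ± 1.37 FPKM in KO (SD, n = 4) and 3.73 ± 0.493 FPKM in WT (SD, n = 3). This gave a log2 fold change of -0.46 (SE 0.27, 95% interval -1.05 to 0.14, limma adjusted p = 0.39, exact two-sided permutation p = 0.29). Without KO1 it was -0.52 and without WT1 -0.51. The value was smaller, -0.24, without KO3 (limma adjusted p = 0.64), and -0.30 with trends in GC content and transcript length removed (adjusted p = 0.56). With the libraries weighted by how closely they follow the fit, Kcnd1 passed (-0.70, limma adjusted p = 0.03), a setting that called 1689 rows in all.

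The shares of Kcnd2 and Kcnd3 in the summed FPKM of the pore subunits overlapped between the groups. Kcnd2 made up 56.8% ± 4.82 in KO (SD, n = 4) and 54.9% ± 2.7 in WT (SD, n = 3), and Kcnd3 37.2% ± 3.68 in KO and 35.8% ± 0.906 in WT. By library, the Kcnd3 share was 31.8%, 39.1%, 39.9% and 38.2% in KO1 to KO4, against 36.2%, 36.5% and 34.8% in WT1 to WT3. KO1 thus lay below every WT share, and KO2, KO3 and KO4 above. Kcnd1 made up 5.04%, 4.85%, 3.42% and 10.4% in KO1 to KO4, against 9.19%, 11.1% and 7.38% in WT1 to WT3. Only the KO4 share of Kcnd1 reached the WT values. The sum over the pore subunits was 44.1 ± 9.52 FPKM in KO and 41.1 ± 5.54 FPKM in WT, with overlapping groups.

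**Figure D2:**
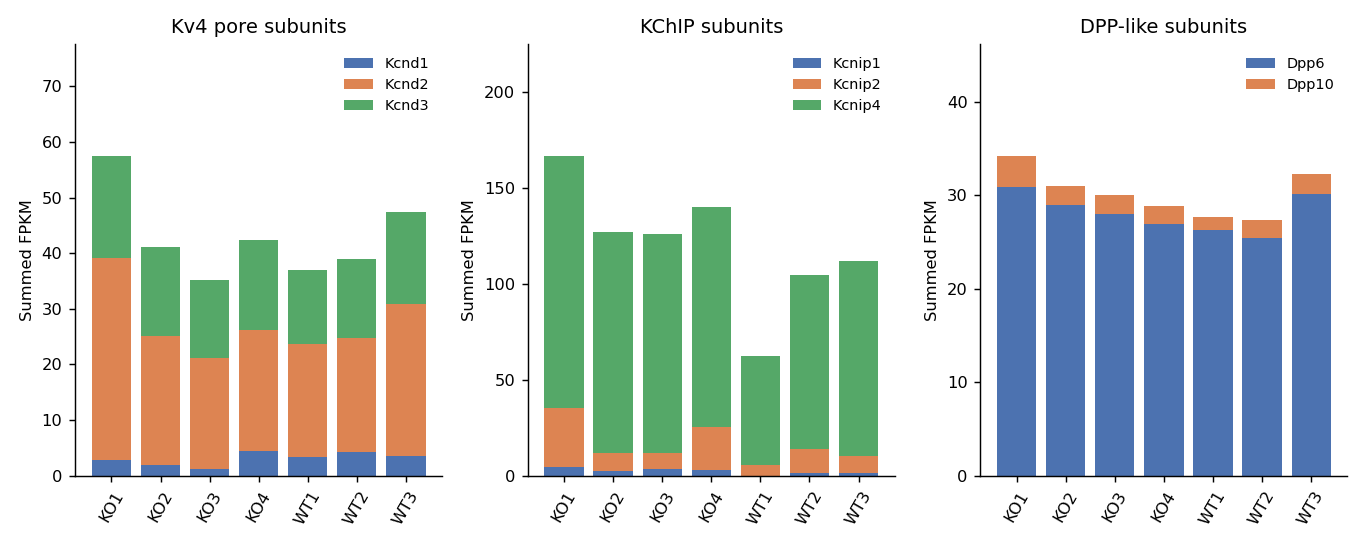
Summed FPKM of the pore subunits, the KChIPs and the DPP-like subunits in each KO library (left) and WT library (right), stacked by gene. Kcnd2 with Kcnd3, Kcnip4, and Dpp6 fill most of each bar, and the 4 KO bars of the KChIPs, 126.3 to 166.8 FPKM, are taller than the 3 WT bars, 62.6 to 111.8 FPKM.

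With all 7 libraries in the main fit, the KChIPs had the 3 largest fold changes of the family. This order did not hold for size in either direction once a library was left out. Without KO1, Kcnd1 at -0.52 was further from no change than Kcnip4 (0.50) and Kcnip2 (0.48). Without WT1, Kcnd1 was at -0.51, Kcnip2 at 0.51 and Kcnip4 at 0.30. Kcnip4 (chromosome 5, 48389502 to 49524907, minus strand) encodes KChIP4, which has a splice form that abolishes fast inactivation of Kv4 channels. It had 131.7, 115.1, 114.6 and 114.5 FPKM in KO1 to KO4, against 57.1, 90.9 and 101.3 FPKM in WT1 to WT3. All 4 KO values lay above all 3 WT values, and KO2, KO3 and KO4 were within 1 FPKM of each other. The means were 119 ± 8.49 FPKM in KO (SD, n = 4) and 83.1 ± 23.1 FPKM in WT (SD, n = 3). The log2 fold change was 0.55 (SE 0.19, 95% interval 0.13 to 0.97, limma p = 0.014, adjusted p = 0.16), which does not pass, and the exact two-sided permutation p was 0.057, the smallest these splits give. Without WT1 the log2 fold change was 0.30 (limma adjusted p = 0.45), and without KO1 it was 0.50 (adjusted p = 0.15). With trends in GC content and transcript length removed it was also 0.30 (adjusted p = 0.39). A pair of genes on the opposite strand, 5730480H06Rik and Gm20700, share 4.63% and 2.73% of the exonic bases of Kcnip4. The table has 1 value per gene, so the splice forms of Kcnip4 could not be followed.

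Kcnip1 (chromosome 11, 33629339 to 33993152, minus strand), the gene of KChIP1, which in the forebrain is best known from GABAergic interneurons, had 4.5, 2.5, 3.4 and 3.0 FPKM in KO1 to KO4, against 0.1, 1.5 and 1.6 FPKM in WT1 to WT3. All KO values lay above all WT values, and WT1 was at the rounding step of the table, 0.1 FPKM. The means were 3.35 ± 0.85 FPKM in KO (SD, n = 4) and 1.07 ± 0.839 FPKM in WT (SD, n = 3). The log2 fold change of 1.16 was the largest of the family (SE 0.30, 95% interval 0.50 to 1.81, limma adjusted p = 0.078). By p it ranked 291 among the 10089 rows. It did not pass, and the exact two-sided permutation p was 0.057, the smallest possible. Without WT1 the log2 fold change was 0.75 (limma adjusted p = 0.22) and without KO1 it was 1.04 (adjusted p = 0.087). With quantile normalization Kcnip1 passed (1.06, limma adjusted p = 0.047), and likewise with weighted libraries (0.73, adjusted p = 0.023). Its fold change also depends on the value added before taking logs, with 2.05 for 0.1 FPKM and 0.47 for 5 FPKM, both without a call.

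Kcnip2 (chromosome 19, 45791839 to 45816061, minus strand), the gene of KChIP2, the KChIP of the heart's transient outward current and one also abundant in striatal projection neurons, had 30.6, 9.3, 8.3 and 22.5 FPKM in KO1 to KO4, against 5.4, 12.2 and 8.9 FPKM in WT1 to WT3. KO1 and KO4 were high, while KO2 and KO3 lay within the WT range. The means were 17.7 ± 10.8 FPKM in KO (SD, n = 4) and 8.83 ± 3.4 FPKM in WT (SD, n = 3). The log2 fold change was 0.79 (SE 0.40, 95% interval -0.07 to 1.66, limma adjusted p = 0.31). The interval spans no difference and a rise of over 1.5 on the log2 scale. Without KO1 the log2 fold change was 0.48 (limma adjusted p = 0.44), without WT1 it was 0.51 (adjusted p = 0.68), and with weighted libraries 0.09 (adjusted p = 0.85).

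Summed markers of medium spiny neurons, other interneurons, oligodendrocytes and astrocytes were highest in KO1 and next highest in KO4, the 2 libraries with the most Kcnip2. The 7 measured markers of medium spiny neurons, of 11 listed, summed to 289, 88.3, 86.4 and 120 FPKM in KO1 to KO4, against 86.6, 102 and 75.5 FPKM in WT1 to WT3. The 7 markers of other interneurons summed to 95.5, 18.1, 21.7 and 36.8 FPKM in KO1 to KO4, against 18.4, 19.6 and 15.8 FPKM in WT1 to WT3, and Sst was the main part of the KO1 sum with 51.0 FPKM. The 6 measured oligodendrocyte markers, of 7 listed, summed to 33.9 to 69.9 FPKM in KO and 31.1 to 38.3 FPKM in WT, and the 6 astrocyte markers to 16.3 to 40.5 FPKM in KO and 17.4 to 18.7 FPKM in WT. The 6 microglial markers did not follow that order, with 1.2, 0.7, 0.9 and 0.3 FPKM in KO1 to KO4, against 1.9, 1.2 and 0.7 FPKM in WT1 to WT3, and the 3 endothelial markers summed to at most 0.2 FPKM in KO, with 0 in KO4, and at most 0.1 FPKM in WT. The sum of the 2 glutamatergic neuron markers was highest in KO4, with 3.4, 0.5, 1.2 and 3.5 FPKM in KO1 to KO4. In WT1 to WT3 that sum was 0.7, 1.5 and 0.8 FPKM. Single markers did not all follow the order of their sums. Penk was next highest in KO2 (23.4 FPKM), Nos1 was lowest in KO1 (0.4 FPKM), and Th was lower in KO1 (3.9 FPKM) than in the other KO libraries. Cldn11 and Mag were highest in WT1 (2.6 and 1.3 FPKM) and Cnp in WT2 (18.0 FPKM). Slc1a2 made up most of the astrocyte sum, with 34.1 FPKM in KO1, and Aldh1l1 was highest in WT1 (1.2 FPKM). No marker in these lists passed the limma threshold, 1 of them (Sst) had an unadjusted p under 0.05, and the part of other cells in the KChIP values was not tested.

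**Figure D3:**
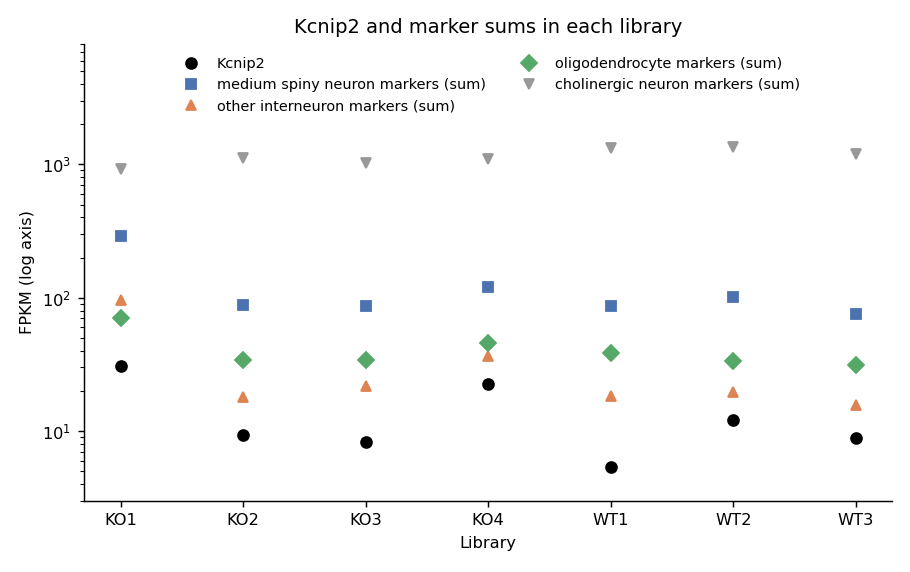
Kcnip2 and the summed FPKM of 4 marker lists in each KO library (left) and WT library (right), on a logarithmic axis. Kcnip2 and the sums for medium spiny neurons, other interneurons and oligodendrocytes are highest in KO1 and next highest in KO4, while the cholinergic sum is lowest in KO1.

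Summed over the 3 measured KChIPs, the level was 166.8, 126.9, 126.3 and 140.0 FPKM in KO1 to KO4, against 62.6, 104.6 and 111.8 FPKM in WT1 to WT3. The ratio of the KChIP sum to the pore subunit sum was 2.9, 3.08, 3.6 and 3.3 in KO1 to KO4, against 1.69, 2.69 and 2.36 in WT1 to WT3. Every KO ratio lay above every WT ratio, and the nearest pair was KO1 with 2.9 and WT2 with 2.69. Of all tested rows, 9.11% had every KO value above every WT value, Kcnip4 among them. The mean ratio was 3.22 in KO and 2.25 in WT; without KO1 the KO mean was 3.33, and without WT1 the WT mean was 2.52. The mean KChIP sum was 140 FPKM in KO and 93 FPKM in WT; it was 131 FPKM in KO without KO1 and 108 FPKM in WT without WT1. These sums, and with them the ratio, rest on Kcnip4, which made up 85.5% ± 6.08 of the KChIP sum in KO (SD, n = 4) and 89.6% ± 2.33 in WT (SD, n = 3). They are given as a description, with no test, and Kcnip3 is not in them.

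Dpp6 had the difference nearest 0 in the family when all libraries were fitted alike. With GC and length trends removed, or with weighted libraries, Kcnd2 was nearer to 0. Dpp6 (chromosome 5, 26817203 to 27727505, plus strand) had 30.9, 28.9, 28.0 and 26.9 FPKM in KO1 to KO4, against 26.3, 25.4 and 30.1 FPKM in WT1 to WT3. It varied little within either group, at 28.7 ± 1.69 FPKM in KO (SD, n = 4) and 27.3 ± 2.49 FPKM in WT (SD, n = 3). On the log2 scale the difference was 0.07 (SE 0.14, limma adjusted p = 0.82), and its 95% interval ran from -0.23 to 0.37. The difference was 0.04 without KO1, 0.05 without WT1 and 0.17 with GC and length trends removed.

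Dpp10 (chromosome 1, 123321471 to 124045559, minus strand) had 3.3, 2.1, 2.0 and 1.9 FPKM in KO1 to KO4, against 1.4, 1.9 and 2.2 FPKM in WT1 to WT3. KO1 was the one library above the rest. The difference was 0.22 on the log2 scale (SE 0.21, 95% interval -0.24 to 0.68, limma adjusted p = 0.60), 0.09 without KO1 and 0.11 without WT1. Dpp6 made up 92.6% ± 1.49 of the DPP-like sum in KO (SD, n = 4) and 93.7% ± 1.06 in WT (SD, n = 3). The ratio of the DPP-like sum to the pore subunit sum was 0.72 ± 0.11 in KO and 0.711 ± 0.0345 in WT.

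**Figure D4:**
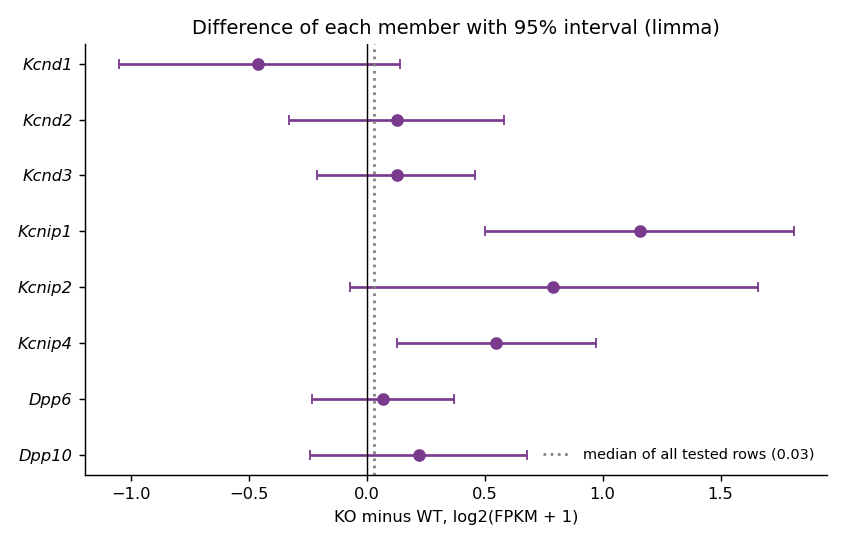
Log2(FPKM + 1) in KO minus that in WT for each measured gene, with its 95% interval from limma; the dotted line is the median of all tested rows, 0.03. The intervals of Kcnip1 and Kcnip4 lie above 0 before adjustment for the number of rows tested, and those of the other 6 genes include 0.

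Across the 7 libraries, Kcnip1 and Kcnip4 varied most alike of all pairs in the family (Pearson r = 0.98 on log2 values), followed by Kcnd2 and Dpp10 (r = 0.90). Kcnd1 had no r above 0.30 with any other member. These values describe 7 points that share the groups and the libraries that stand apart. Among all tested rows, those most like Kcnip1 were Ythdf3, Orc3 and Elovl7 (r = 0.992, 0.988 and 0.987), and those most like Kcnip4 were Hbp1, Lin54 and Orc3 (r = 0.992, 0.992 and 0.990). In Orc3, as in Kcnip1 and Kcnip4, WT1 had the lowest value (9.2 FPKM) and KO1 the highest (21.6 FPKM). Kcnd2 was most like Ipo9, Lpgat1 and Cacna2d3 (r = 0.986, 0.984 and 0.982), and Dpp6 was most like Nipal3, Mvb12b and Alcam (r = 0.965, 0.938 and 0.929).

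Genes that work with Kv4 channels or carry other A-type currents gave no call, and limma found 1 at an unadjusted p under 0.05, lower in KO, as were 8.69% of all tested rows at that level. Of 14 genes 13 were measured and 7 tested, 3 with a positive and 4 with a negative difference, and the median was -0.02. Dlg4, the gene of the scaffold PSD-95, which binds Kv4 channels, had the smallest p, with 39.2, 31.3, 25.7 and 43.8 FPKM in KO1 to KO4, against 48.4, 52.0 and 53.9 FPKM in WT1 to WT3. All KO values of Dlg4 lay below all WT values, as in 8.29% of all tested rows (log2 fold change -0.57, SE 0.18, limma adjusted p = 0.13). Dlg1, a relative of Dlg4, had a log2 fold change of 0.32 (limma adjusted p = 0.43), which was 0.19 without KO1 and 0.15 without WT1. Kcnab2, a Kv1 beta subunit gene, had 24.6 ± 2.37 FPKM in KO (SD, n = 4) and 27.8 ± 2.51 FPKM in WT (SD, n = 3), a difference of -0.17 on the log2 scale (limma adjusted p = 0.55). Camk2a, a kinase gene, reached 52.6 FPKM in KO1, and its log2 fold change of 0.23 (limma adjusted p = 0.64) was -0.00 without KO1. Kcna4, the pore subunit of the other main neuronal A-type channel, had 5.12 ± 2.05 FPKM in KO and 5 ± 0.781 FPKM in WT; it was singled out after its values were seen.

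Of the neuronal calcium sensor relatives of the KChIPs, 5 of 9 were tested and 1 passed, against 1.74% of all tested rows. Vsnl1, the gene of visinin-like protein 1, a calcium sensor of neurons, had 94.2, 123.7, 93.7 and 105.6 FPKM in KO1 to KO4, against 67.1, 64.4 and 56.3 FPKM in WT1 to WT3. It rose by 0.72 on the log2 scale (SE 0.15, 95% interval 0.39 to 1.06, limma adjusted p = 0.043), with means of 104 ± 14.1 FPKM in KO (SD, n = 4) and 62.6 ± 5.62 FPKM in WT (SD, n = 3). With 1 library left out, limma kept this call without KO1 (adjusted p = 0.02) and lost it without each of the other 6, where the fold change stayed between 0.64 and 0.77 (adjusted p = 0.06 to 0.16). The call was also lost with GC and length trends removed (0.51, limma adjusted p = 0.10). Ncs1, frequenin, a Kv4 modulator of the same family that was singled out after its values were seen, had 40.8 ± 1.58 FPKM in KO and 53.7 ± 4.15 FPKM in WT, without overlap (-0.39, limma adjusted p = 0.16). All KO values lay below all WT values in 8.29% of all tested rows. The list's median was 0.08.

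The dipeptidyl peptidase relatives and the genes linked to Kcnip3 gave no call either, and at an unadjusted limma p under 0.05 there was 1 gene in each list, Dpp9 and Psen2, both lower in KO, as were 8.69% of all tested rows. Dpp9, a cytosolic dipeptidyl peptidase, had 7.2 ± 0.872 FPKM in KO (SD, n = 4) and 9.93 ± 0.702 FPKM in WT (SD, n = 3), without overlap (log2 fold change -0.42, limma adjusted p = 0.19). Dpp8 had a fold change of 0.00 to 2 decimals on that scale, and Dpp4 was listed at 0.0 FPKM in all libraries. The product of Kcnip3 is also known as DREAM, a transcriptional repressor, and as calsenilin, a presenilin partner. Of 8 described targets and partners 5 were tested, 1 with a positive and 4 with a negative difference, against 46.6% of all tested rows with a negative one, and the median was -0.27. Psen2, the gene of presenilin 2, had 6.32 ± 1.14 FPKM in KO (SD, n = 4) and 9.6 ± 2.02 FPKM in WT (SD, n = 3), without overlap (-0.53, SE 0.19, limma adjusted p = 0.17). Slc8a3, a sodium-calcium exchanger, and the transcription factor genes Fosl2 and Crem had fold changes of -0.27, -0.37 and -0.07 on the log2 scale. Slc8a3 was also without overlap, with 6.6 to 8.0 FPKM in KO and 8.2 to 9.7 FPKM in WT. Of all tested rows, 8.29% were without overlap and lower in KO.

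**Figure D5:**
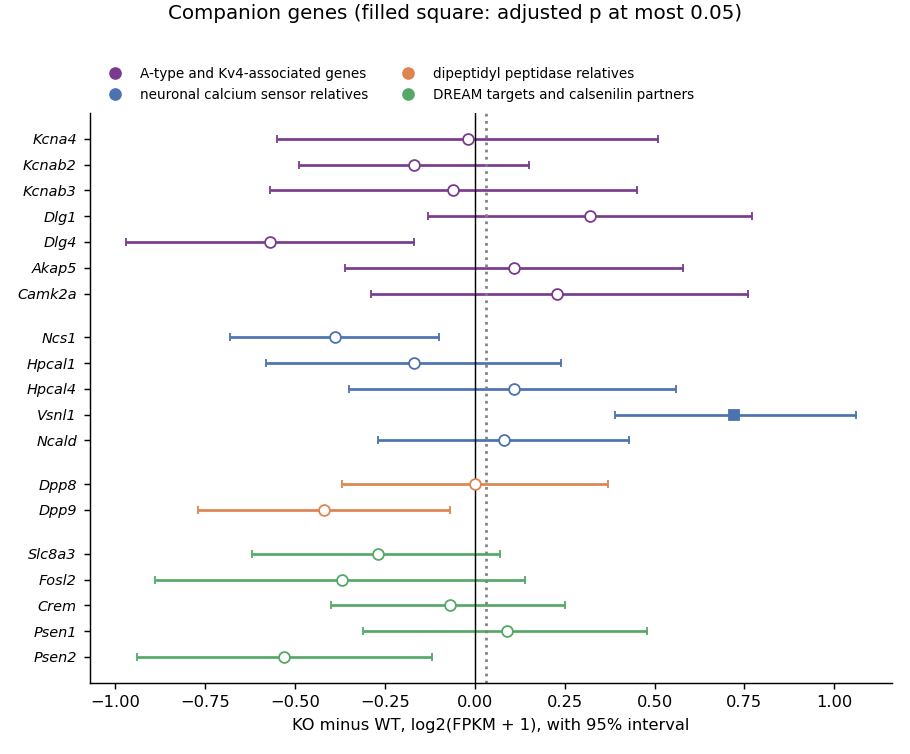
Log2(FPKM + 1) in KO minus that in WT with its 95% interval for the tested genes of the 4 companion lists; the filled square marks the 1 gene with a limma adjusted p of at most 0.05, Vsnl1 at 0.72. The dotted line is the median of all tested rows, 0.03.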

How the data were processed

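Ribosome-bound RNA was sequenced in 4 KO and 3 WT libraries, grouped and numbered by sample title and tied to the table's library numbers by the file header. FPKM values, rounded to 1 decimal, were deposited by the authors for each library, so a value under 0.05 is listed as 0.0. TopHat2 2.0.8, Cufflinks 2.1.1, DESeq 1.10.1 and mm10 are named, without roles, per the submitters' processing notes. The annotation, strand handling and treatment of reads with several matches are not given in the sources used here. Amplification from 1 ng of RNA was used, per the labels' protocols. A second table deposited by the authors lists 113 genes with group mean FPKM, the fold and log2 fold of KO over WT, and p-values. The authors' adjusted p in it was at most 0.0499, so it holds only genes under that value. It was searched for the family and companion genes and holds none of them.

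Depth is unknown from FPKM, so no counting interval or detection floor is given, and the number of libraries limits the precision. Values were tested as log2(FPKM + 1) in rows whose mean reached 1 FPKM, using limma 3.58.1 under R 4.3.3, with a mean-variance trend in eBayes, two-sided p-values, Benjamini-Hochberg adjustment over all 10089 rows and a threshold of 0.05. Fold changes on this scale understate the change of low genes. Exact permutation tests used scipy 1.17.1. On simulated data with the means and variances of the 10089 rows, limma recovered 8.29% of 1.5-fold, 55.5% of 2-fold and 93.8% of 4-fold changes in KO vs WT, with 4.31% false calls. The folds were added on the log2(FPKM + 1) scale, with independent noise of the same variance in every library. Libraries that stand apart over many rows, as KO1 and WT1 do, were not simulated, so these shares need not hold for the real libraries. The library numbers of KO and WT do not interleave in the header, so a batch along them and the group cannot be told apart. Same-numbered KO and WT libraries did not deviate together. Coordinates, transcripts, GC content and length came from GENCODE M21 for mm10, matched by symbol for 95.3% of tested rows.

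Named genes were all family members, each companion list's genes past the threshold or otherwise up to 4 with the smallest p, the 3 rows most alike in pattern, and S100a10. The members and lists were chosen with earlier results of these data known, and some listed genes are not reported here. The 21 alternatives covered normalization, pseudocount, filter, limma settings, a replicate block, rows summed by symbol, a term for Y-linked RNA, GC and length trends, and each library left out.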

Additional observations from a re-analysis of the deposited data

Results flagged for a closer look

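In each of 32 measured levels, shares and sums, the highest and lowest KO library were compared with the other 3 by Dixon's test, which flags about 1 in 20 groups by chance; 5 stood apart, all in KO1. The WT group of 3 was not tested. Kcnip4 reached 132 FPKM in KO1, with 115 FPKM in the next KO library. Dpp10 reached 3.3 FPKM in KO1, with 2.1 FPKM in the next. The share of Dpp10 in the DPP-like sum was 9.65% in KO1 and at most 6.77% in the other KO libraries, and the share of Dpp6 was accordingly 90.4% in KO1 and at least 93.2% in the others. Dpp9 was lowest in KO1 with 5.9 FPKM, against 7.5 FPKM in the next KO library. KO1 was also the library with the highest sums of medium spiny neuron, other interneuron and oligodendrocyte markers; the part of these cells in the values above was not tested.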

How the results depend on the processing

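The count of rows called was 176. It was 83 without a filter, 100 without the trend, 1689 with array weights and 18 with the replicate block, and from 28 to 331 with 1 library left out. The labels do not say that replicate numbers pair pools, so the numbers were not taken as pairs. Same-numbered libraries had correlations of their deviations of -0.22, 0.0202 and -0.259, which cannot settle whether pools were paired. The count of family members called was 0, but 1 with quantile normalization (Kcnip1) and 2 with array weights (Kcnip1 and Kcnd1); it was 0 with the replicate block and from 0 to 0 with 1 library left out. Array weights ran from 0.297 for KO1 and 0.392 for WT1 to 4.46 for WT2. Among the family, the sign turned once, in Kcnd2 without KO1 (-0.06; from -0.06 to 0.26 with 1 library left out). In companion genes it turned in Crem without WT2 (0.00), in Camk2a with array weights (-0.11) and without KO1 (-0.00), in Kcnab2 with GC and length trends removed (0.07), and in Dpp8, whose main value was near 0, with the replicate block (0.06), with Y-linked RNA in the fit (0.04), and without KO2 (0.02), KO3 (0.03), KO4 (0.06), WT2 (0.06) or WT3 (0.06). With 1 library left out, Camk2a ran from -0.00 to 0.37, Crem from -0.11 to 0.00 and Dpp8 from -0.12 to 0.06. Where a value moved, the cause was not tested. Kcnip1 ran from 0.47 to 2.05 over its 20 alternatives (limma adjusted p 0.023 to 0.26), Kcnip4 from 0.30 to 0.71 over 21 (0.068 to 0.45), and Kcnip2 from 0.09 to 1.06 over 21 (0.20 to 0.85). Dlg4 and Dpp9 passed with array weights (limma adjusted p = 0.0044 and 0.041). Kcnip1, Kcnd1 and Dpp10 could not be tested at a mean of at least 5 FPKM. Vsnl1 lost its limma call in 11 of 21 alternatives. The table's step of 0.1 FPKM limits Kcnip1, Kcnd1 and Dpp10, and the unknown depth limits them further.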
